A study of Mus musculus with 2 samples.

Results

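Bmpr1a, Bmpr1b, Id1, Id2, Id3, Id4, Msx1, Msx2, Smad6 and Smad7 encode BMP type I receptors and genes whose transcription follows BMP signalling. They were read in the tissue between the digits of mouse hind limbs, on 1 Affymetrix array of homozygous Hammer toe embryos and 1 array of wild-type embryos. The genes were chosen by name, and every probe set that GEO's platform annotation assigns to exactly 1 of them was kept. That gave 24 probe sets for the 10 genes, out of 34945 single-gene probe sets and 45101 probe sets in all.

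Hammer toe mice keep webbing between their digits, and the comparison asks how their interdigital transcripts differ from those of the wild type. Both samples were taken from interdigital regions 2 and 3 of the hind limb at stage E13.5 after natural mating, and no treatment is named. The Hammer toe sample was homozygous, and its strain background is not given in the sources used here. The wild-type sample was B6, so strain and genotype cannot be told apart. The study design names 3 sets of 5 littermates, 15 embryos per genotype, but each genotype is represented by 1 array and how the embryos were combined on it is not stated. No value below therefore has an error between samples, no test was possible, and differences are described by size alone.

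BMP ligands bind pairs of type I and type II receptor kinases at the cell surface. The activated type I receptor phosphorylates Smad1, Smad5 and Smad9, which enter the nucleus with Smad4 and switch on genes such as the Id and Msx genes. Smad6 and Smad7 are induced by the same signal and block it, closing a feedback loop. In the interdigit, BMP signalling is known for its part in the regression that frees the digits.

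On these arrays the 10 genes stood close to wild type. Intensities are MAS5 values, the Affymetrix summary of a probe set, on a linear scale in arbitrary units. Values under 78.1, the median of all non-control values on both arrays, were treated as too dim to compare. Of the 24 probe sets, 21 had at least 1 array above this floor, and 20 had both. A single probe set, 1 of the 21, differed by 1.5-fold or more. Over all 20995 measured single-gene probe sets the share at 1.5-fold or more in either direction was 3.9%, and the share at 1.5-fold or more lower was 1.75%. The exception was a Smad7 probe set, 3.26-fold lower in Hammer toe, whereas the other Smad7 probe set was 1.06-fold higher. Of the 20 with both arrays above it, 13 were lower in Hammer toe and 7 higher. The background was even, with 50% of all such probe sets lower. Ratios are given as Hammer toe over wild type. The median log2 ratio was -0.05 over the 21 measured probe sets, against 0.00 over all 20995. Read from the brightest probe set of each gene, 7 genes were lower and 3 higher, with a median log2 ratio of -0.03, and none reached 1.5-fold, where 3.56% of all measured genes did.

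**Figure D1:**
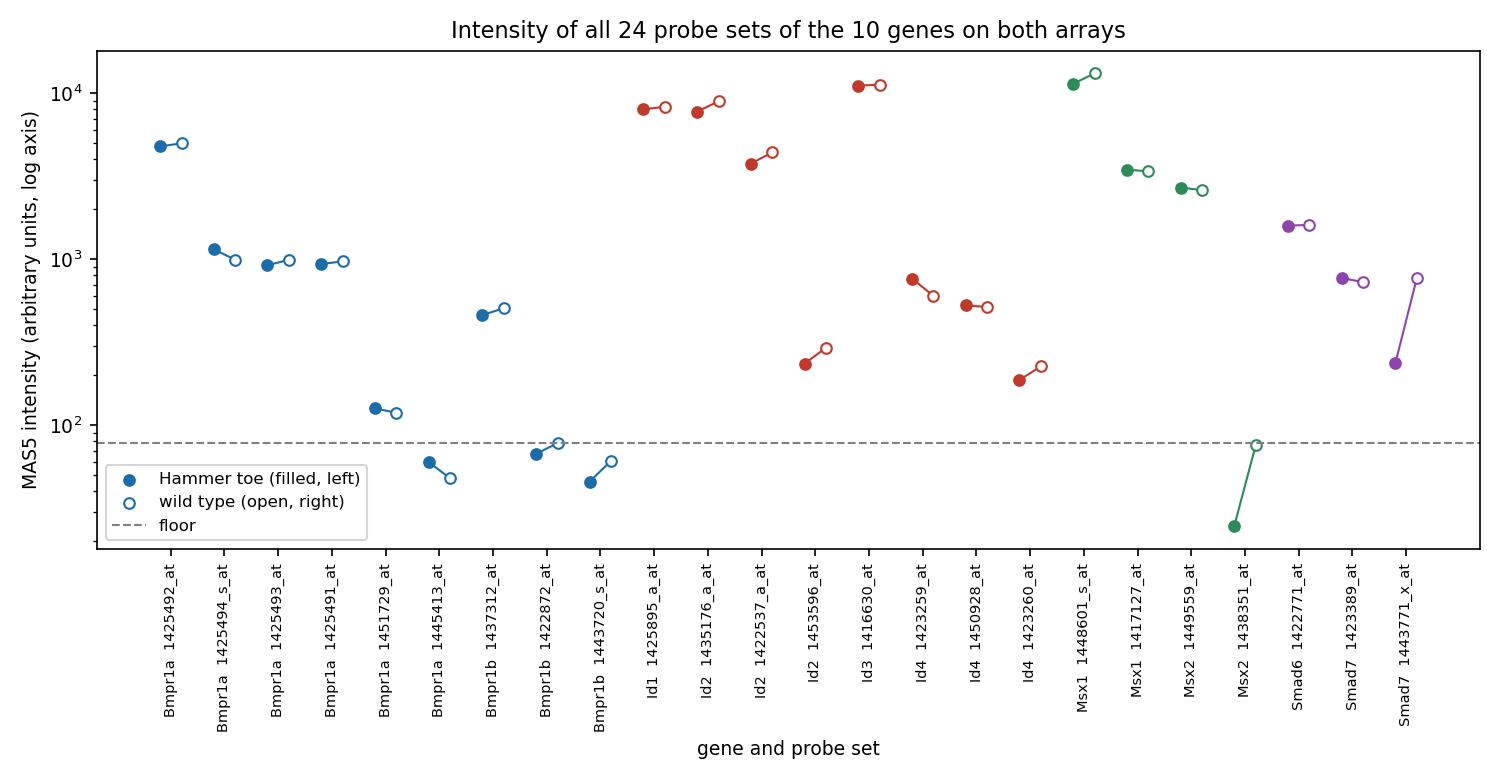
MAS5 intensity (arbitrary units, log axis) of each of the 24 probe sets, with the Hammer toe array as a filled point on the left and the wild-type array as an open point on the right of each pair. Most pairs are nearly level. The Smad7 probe set 1443771_x_at reads 237 in Hammer toe and 773 in wild type, and the Msx2 probe set 1438351_at lies under the dashed floor on both arrays.

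The type I receptors come first in the pathway. Bmpr1a, a widely expressed receptor kinase, has 6 probe sets, of which 5 were measured. Its brightest, 1425492_at, read 4772 in Hammer toe and 4991 in wild type, a log2 ratio of -0.06. The next, 1425494_s_at, read 1147 in Hammer toe and 994 in wild type, a log2 ratio of 0.21 and the highest of the gene. The Hammer toe array was thus slightly lower on one and slightly higher on the other, by 1.05-fold and 1.15-fold. Probe set 1425493_at read 920 in Hammer toe and 991 in wild type, and 1425491_at read 935 in Hammer toe and 970 in wild type. The dim 1451729_at read 127 in Hammer toe and 119 in wild type. Across the 5 measured probe sets the log2 ratios ran from -0.11 to 0.21, with 3 lower and 2 higher. All 5 are annotated to the same cDNA record and are not treated as independent readings. Which part of the transcript each one reads was not tested. The sixth, 1445413_at, was under the floor on both arrays, at 60.2 in Hammer toe and 48.0 in wild type.

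Bmpr1b, the type I receptor known for its part in digit cartilage formation, was read by 3 probe sets. The brightest, 1437312_at, read 461 in Hammer toe and 507 in wild type, 1.10-fold lower. Probe set 1422872_at read 67.4 in Hammer toe and 78.1 in wild type, where the wild-type value lay just above the floor, so the pair gives no usable ratio. The third, 1443720_s_at, was under the floor on both arrays, at 45.8 in Hammer toe and 61.4 in wild type. All 3 read lower in Hammer toe, but only the first cleared the floor in both samples.

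The Id genes encode helix-loop-helix proteins without a DNA-binding region, which bind E proteins and keep them off their target genes, and they are among the most direct transcriptional readouts of BMP signalling. Id1 and Id3 barely differed between the arrays. Id1, on its only probe set 1425895_a_at, read 7996 in Hammer toe and 8274 in wild type, a log2 ratio of -0.05. Id3, on its only probe set 1416630_at, read 11105 in Hammer toe and 11220 in wild type, a log2 ratio of -0.01. Both values were bright, in the range above 1000 where 95% of measured probe sets lay within a log2 ratio of 0.32 in either direction, and neither gene differed by more than 1.035-fold.

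Id2, an Id gene expressed in limb mesenchyme, was lower in Hammer toe on all 3 of its probe sets. Probe set 1435176_a_at read 7744 in Hammer toe and 8935 in wild type, 1.15-fold lower. Probe set 1422537_a_at read 3767 in Hammer toe and 4395 in wild type, 1.17-fold lower. Probe set 1453596_at, a dimmer one, read 235 in Hammer toe and 293 in wild type, 1.246-fold lower. All 3 lay on the same side with log2 ratios from -0.32 to -0.21, a gap of 0.11 between them. Each of these ratios was inside the range that held 95% of probe sets of like brightness, a log2 ratio of 0.32 above 1000 and of 0.53 between 200 and 1000. Among the 1280 genes with 3 probe sets that cleared the floor in both samples, 18.6% had all 3 lower in Hammer toe. All 3 were lower by at least the smallest Id2 difference in 13 of them, Id2 included, or 1.02%. That size was set by Id2 itself, so the share describes its place on these arrays and is no test.

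Id4, the fourth member of the family, gave probe sets that disagreed in sign. Probe set 1423259_at read 764 in Hammer toe and 602 in wild type, 1.27-fold higher. Probe set 1450928_at read 528 in Hammer toe and 516 in wild type, 1.02-fold higher. Probe set 1423260_at read 187 in Hammer toe and 226 in wild type, 1.21-fold lower. The brightest probe set was thus the highest, and the mean of the 3 log2 ratios was 0.04. All 3 are annotated to the same cDNA record. Because their signs differ, no direction can be read for this gene. The gap of Id4 was 0.62 on the log2 scale. A gap at least as wide was found in 9.21% of the 5134 genes with 2 or more probe sets that cleared the floor in both samples, whatever the number of their probe sets.

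The promoters of Id2, Id3 and Id4 are shown because these response genes hold a Smad-type motif in the 250 bases before the start and because they gave 3 different pictures: an even lowering, no difference, and disagreement between probe sets. Sequences are from RefSeq (GRCm38.p6), read 5′ to 3′ along the gene, with GGCGCC, the GC-rich element bound by BMP Smads, and CAGAC, the Smad-binding element, in capitals (CAGAC on the opposite strand reads GTCTG). Id2 is given from chr12:25096093-25096342 on the minus strand, Id3 from chr4:136143572-136143821 on the plus strand and Id4 from chr13:48260866-48261115 on the plus strand.
Id2: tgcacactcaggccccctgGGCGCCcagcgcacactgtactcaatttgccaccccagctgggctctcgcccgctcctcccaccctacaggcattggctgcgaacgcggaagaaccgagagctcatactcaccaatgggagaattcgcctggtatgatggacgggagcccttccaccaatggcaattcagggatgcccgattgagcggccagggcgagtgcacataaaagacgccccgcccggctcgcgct
Id3: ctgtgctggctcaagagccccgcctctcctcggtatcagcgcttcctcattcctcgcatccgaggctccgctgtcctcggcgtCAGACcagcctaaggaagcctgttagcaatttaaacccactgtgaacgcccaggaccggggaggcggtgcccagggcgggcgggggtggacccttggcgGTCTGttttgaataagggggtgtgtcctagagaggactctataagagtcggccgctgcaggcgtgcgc
Id4: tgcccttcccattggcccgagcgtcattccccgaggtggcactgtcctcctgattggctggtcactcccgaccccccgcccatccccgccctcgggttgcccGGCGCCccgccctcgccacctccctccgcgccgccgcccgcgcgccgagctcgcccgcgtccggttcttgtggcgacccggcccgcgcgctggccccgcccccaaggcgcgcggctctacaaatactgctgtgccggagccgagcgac
The GGCGCC of Id2 begins 231 bases before the start and that of Id4 148 bases before it. Id3 holds CAGAC 167 bases and GTCTG 68 bases before the start. In windows from 250 bases before to 50 bases after the start, 8 of the 10 genes were matched, with 10 windows between them. Id1 and Smad7 were not matched. GGCGCC, which reads the same on both strands, was present for 3 genes (Bmpr1a, Id2 and Id4), and 11.9% of all 32851 windows hold it. CAGAC on either strand was present for Bmpr1b and Id3, and 49.6% of all windows hold it. The E-box CACGTG, also the same on both strands, was in none of the 10 windows, and 7.15% of all windows hold it. No matches of different motifs overlapped. These matches are descriptions of letters and do not show binding. The genes with GGCGCC included the evenly lower Id2 and also Id4 and Bmpr1a, whose probe sets split in sign.

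The E proteins, the partners that Id proteins bind, were likewise close to wild type on their brightest probe sets. Tcf4 read 10887 in Hammer toe and 11139 in wild type, Tcf12 read 8655 in Hammer toe and 9507 in wild type, and Tcf3 read 4125 in Hammer toe and 4013 in wild type. Their log2 ratios were -0.03, -0.14 and 0.04. Among the 14 measured probe sets of the 3 genes, 1 was at 1.5-fold or more, against 3.9% of all measured single-gene probe sets. It was a dim Tcf4 probe set that read 118 in Hammer toe and 66.3 in wild type, under the floor there.

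Msx1 and Msx2 encode homeodomain repressors that are induced by BMP in limb mesenchyme and ectoderm and are used as markers of BMP activity in the interdigit. Msx1 probe set 1448601_s_at read 11376 in Hammer toe and 13145 in wild type, 1.16-fold lower. Its second probe set, 1417127_at, read 3465 in Hammer toe and 3378 in wild type, 1.03-fold higher. Both are annotated to the same cDNA record and both lay within the 95% range of bright probe sets, so the 2 readings differ by 0.25 on the log2 scale with no common direction. Msx2 probe set 1449559_at read 2700 in Hammer toe and 2608 in wild type, 1.04-fold higher. The other Msx2 probe set, 1438351_at, read 24.8 in Hammer toe and 76.0 in wild type. Both of those values were under the floor, so this reading is given as values only. With no floor, 27.5% of all 34945 single-gene probe sets, bright ones included, differed by 1.5-fold or more. The share among the dim ones alone was not computed.

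Smad6 and Smad7, the inhibitory Smads, close the feedback loop. Smad6, which acts mainly against BMP type I receptor signalling, read 1594 in Hammer toe and 1609 in wild type on its only probe set 1422771_at, a log2 ratio of -0.01. Smad7, which blocks both BMP and TGF-beta receptors, gave opposite readings. Probe set 1423389_at read 771 in Hammer toe and 727 in wild type, a log2 ratio of 0.08. Probe set 1443771_x_at read 237 in Hammer toe and 773 in wild type, a log2 ratio of -1.71. The first probe set thus differed little between the arrays, while the second was far dimmer on the Hammer toe array.

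The Smad7 reading stood out on the whole array. Among 19461 single-gene probe sets that cleared the floor in both samples, 1443771_x_at had the lowest log2 ratio, followed by one at -1.65. Probe sets with an array under the floor reached lower ratios, down to -2.28 over all 20995 measured ones. The brightness of 1443771_x_at places it where 95% of probe sets lay within 1.45-fold and 3.66% reached 1.5-fold. Of all measured single-gene probe sets, 0.414% differed by 2-fold or more. The gap between the Smad7 probe sets, 1.79 on the log2 scale, was the third widest of those 5134 genes. A gap of this size or more was found in 0.0584% of them, Smad7 included. That size was set by Smad7 itself, so the share describes its place on these arrays and is no test. The median gap was 0.24 and the SD of probe sets around their gene's mean was 0.21. Probe sets with the suffix _x_at can share probes with other transcripts. Among 1357 measured ones of this type, 6.34% differed by 1.5-fold or more and 1.11% by 2-fold or more, against 3.73% at 1.5-fold or more among other types. The annotation gives 1443771_x_at the Smad7 gene ID but no sequence record, whereas 1423389_at has one. Which transcript the lower reading reports was not tested.

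**Figure D2:**
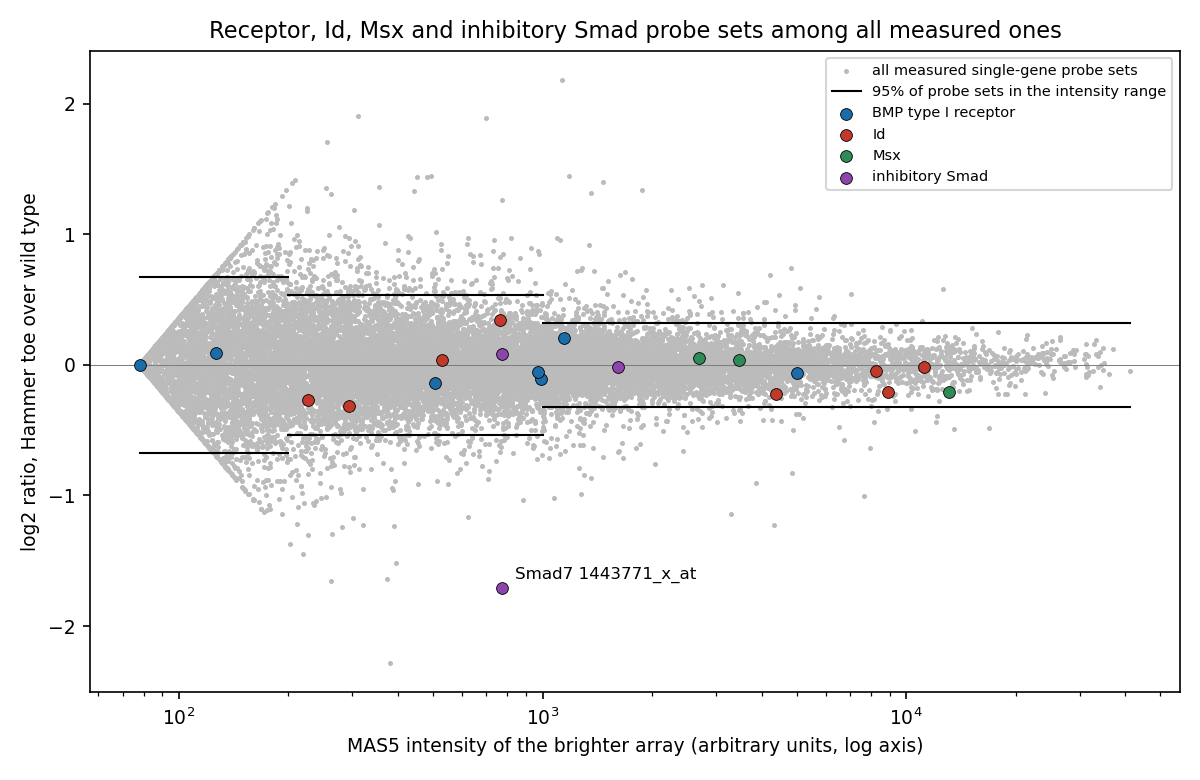
Log2 ratio (Hammer toe over wild type) against the MAS5 intensity of the brighter array (log axis) for all measured single-gene probe sets in grey and the 21 measured probe sets of the 10 genes in colour by role. Black lines hold 95% of probe sets in each intensity range. Every coloured point lies inside them except the Smad7 probe set at -1.71.

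**Figure D3:**
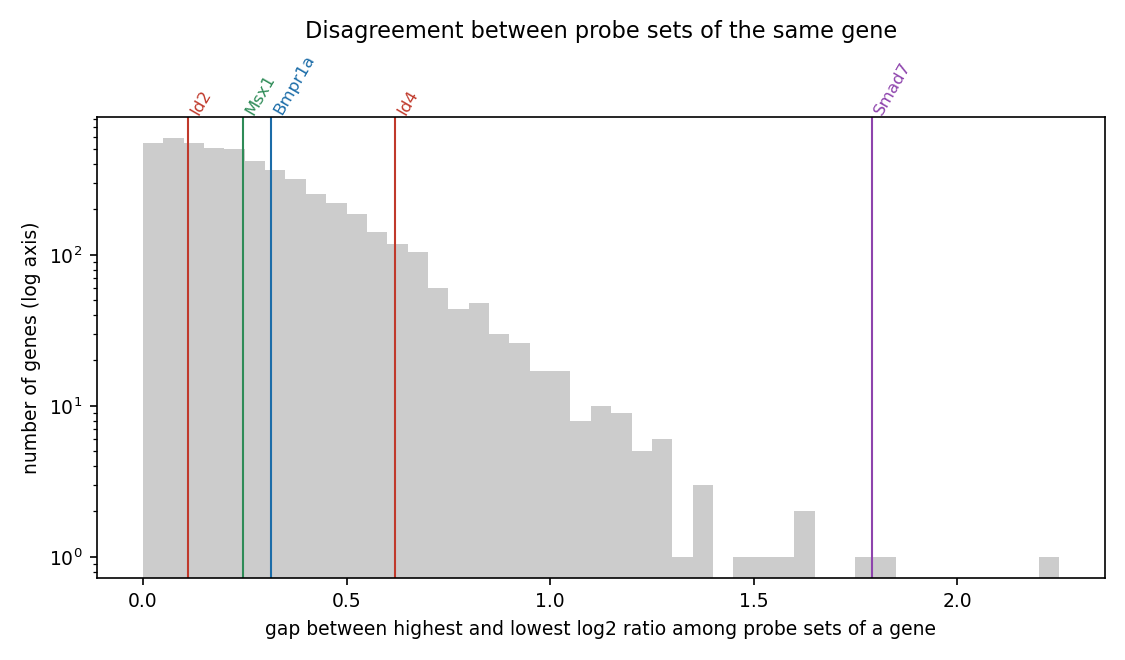
Number of genes (log axis) by the gap between their highest and lowest log2 ratio, for the 5134 genes with 2 or more probe sets that cleared the floor in both samples. Coloured lines mark Id2 at 0.11, Msx1 at 0.25, Bmpr1a at 0.31, Id4 at 0.62 and Smad7 at 1.79, and only the Smad7 line stands in the sparse right-hand tail.

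Around these genes, other parts of the BMP pathway were summarised from the brightest probe set of each gene. Over all 11627 genes read this way, 3.56% were at 1.5-fold or more in either direction and 48.3% were lower. All 5 measured ligands were lower in Hammer toe, none by 1.5-fold, with a median log2 ratio of -0.17. Bmp4 read 984 in Hammer toe and 1183 in wild type, Bmp2 read 2721 in Hammer toe and 3100 in wild type, and Bmp7 read 1386 in Hammer toe and 1564 in wild type. These are 1.20-fold, 1.14-fold and 1.13-fold lower, each inside the 95% range for its brightness, and a second Bmp7 probe set was 1.07-fold higher. A dimmer probe set of Bmp5 also went the other way, at 152 in Hammer toe and 113 in wild type. Bmp6 was under the floor. Bmp3, Gdf6 and Gdf7 had no single-gene probe set and were not analysed here.

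Among 9 measured secreted antagonists and modulators, 5 were higher and 4 lower, none by 1.5-fold, with a median of 0.14. Bmper, a secreted protein that binds BMPs, read 2356 in Hammer toe and 1660 in wild type. Sostdc1, a BMP and Wnt antagonist, read 4070 in Hammer toe and 2918 in wild type. Fst, which encodes the activin and BMP antagonist follistatin, read 962 in Hammer toe and 701 in wild type. They were higher by 1.42-fold, 1.39-fold and 1.37-fold, of which the first 2 lay beyond the 95% range of bright probe sets. Nog, which encodes the BMP antagonist noggin, read 60.8 in Hammer toe, under the floor, and 104 in wild type. Chrd, which encodes chordin, read 102 in Hammer toe and 48.3 in wild type, under the floor, so the ratios of both are bounds and may be larger than 1.5-fold. The second probe set of Sostdc1 was 1.43-fold higher and that of Fst 1.57-fold higher.

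Other receptors and the Smads that carry the signal differed little. Of 10 other receptors and co-receptors, 6 were higher and 4 lower, and the co-receptor gene Rgma, at 272 in Hammer toe and 158 in wild type, was the only one at 1.5-fold or more. Acvr1, another BMP type I receptor, read 777 in Hammer toe and 860 in wild type on its brightest probe set, 1.11-fold lower. A second Acvr1 probe set read 189 in Hammer toe and 295 in wild type, 1.56-fold lower. Acvr2a and Neo1 were 1.14-fold and 1.12-fold higher on their brightest probe sets, and Bmpr2, the main type II receptor, was 1.04-fold lower. The second brightest probe set of Neo1 went the other way, at 873 in Hammer toe and 1097 in wild type, a log2 ratio of -0.33, while a pair of dim ones stood at 0.56 and 0.72, so no direction can be read for Neo1. Smad5, Smad2 and Smad4 had log2 ratios of -0.12, 0.15 and -0.04, and Smad1, a BMP Smad like Smad5, -0.01. Of the 5 measured carrier Smads, 1 was higher and 4 lower. Each of the 4 lower ones had another probe set that was higher in Hammer toe, at a log2 ratio of 0.12 for Smad5 and 0.24 for Smad3. The 5 measured ones include Smad2 and Smad3, which are not among the BMP Smads named above. Smad9, which is, stayed under the floor at 51.2 in Hammer toe and 47.5 in wild type. Of 12 Smad regulators, 3 were higher and 9 lower on their brightest probe sets, with none of these at 1.5-fold or more. Among the list's 32 measured probe sets, 1 was at 1.5-fold or more, a dimmer Tob2 one. It read 300 in Hammer toe and 450 in wild type, a log2 ratio of -0.59. Tob2 counted as higher on its brightest probe set, of the _x_at type, at 0.17. All its other measured probe sets were lower, so no direction can be read for Tob2. Skil, which encodes the Smad co-repressor SnoN, read 1344 in Hammer toe and 1866 in wild type, 1.39-fold lower and beyond the 95% range of bright probe sets. Its second, dimmer probe set was 1.11-fold higher. Tab1 and Zfp423, a kinase adaptor and a BMP Smad co-factor, were 1.16-fold and 1.14-fold lower.

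Other BMP response genes were measured for 13 of 14 listed. Of these, 8 were higher and 5 lower, with a median log2 ratio of 0.08. The 2 at 1.5-fold or more were T-box genes of the interdigit, both higher. Tbx3 read 455 in Hammer toe and 262 in wild type, 1.74-fold. Tbx2 read 506 in Hammer toe and 311 in wild type, 1.63-fold. This Tbx3 probe set carries the suffix _x_at. A second Tbx3 probe set read 443 in Hammer toe and 176 in wild type, 2.52-fold higher. A dimmer Dlx3 probe set read 129 in Hammer toe and 57.9, under the floor, in wild type, while the brightest was 1.03-fold higher. Of the list's 16 measured probe sets, 4 were 1.5-fold or more higher and 0 that much lower. Over all measured single-gene probe sets these shares were 2.15% and 1.75%. The 4 are not separate genes: they are the Tbx2 probe set, both Tbx3 probe sets and the dimmer Dlx3 one, whose ratio is a bound. Hand1 read 72.4 in Hammer toe, under the floor, and 95.8 in wild type, at least 1.23-fold lower. Dlx5, a BMP-induced homeobox gene, was 1.03-fold lower and Hey1 1.20-fold lower.

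**Figure D4:**
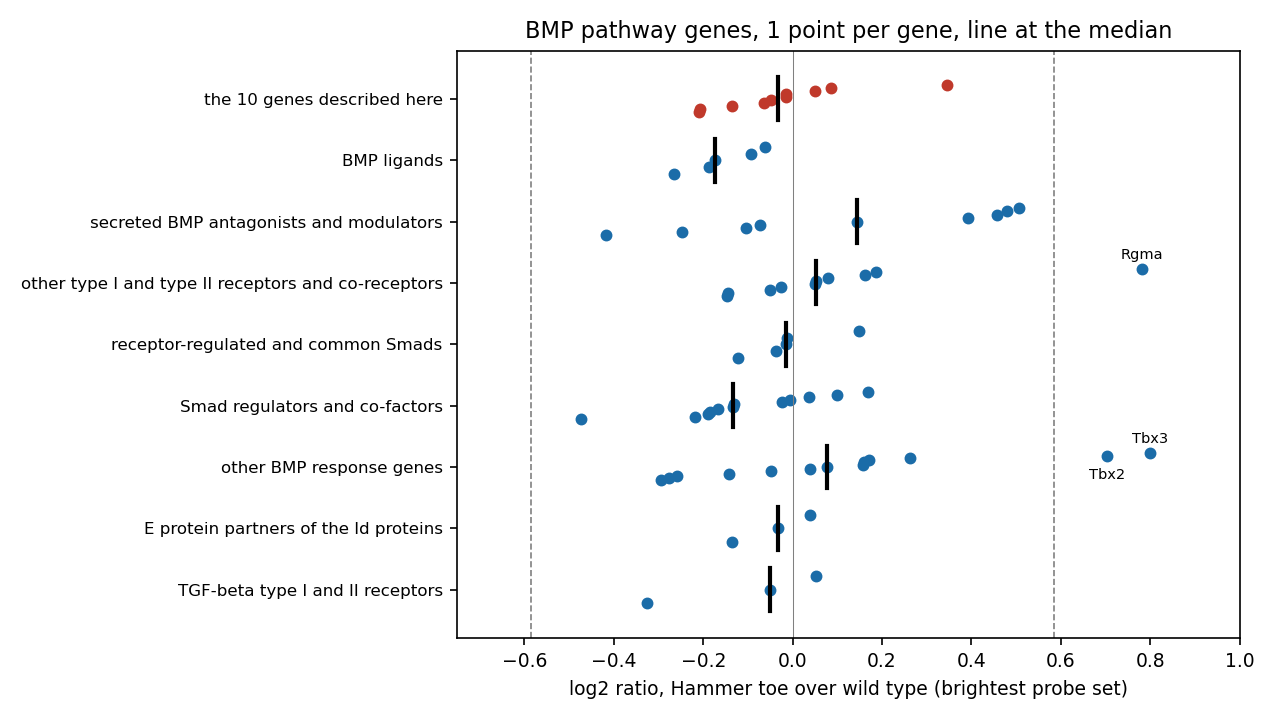
Log2 ratio, Hammer toe over wild type, of the brightest probe set of each measured gene, for the 10 genes (red, top row) and 8 lists of related genes (blue), with a black line at each median. Dashed lines mark 1.5-fold, and genes with 1 array under the floor are drawn at their bound. The 10 genes lie between -0.21 and 0.35, and Rgma, Tbx2 and Tbx3 lie to the right of the dashed line.

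The labelled tissue was checked against its markers, and other cell types against theirs. Each gene was read from its brightest probe set, on which 3.56% of all genes were at 1.5-fold or more and 48.3% were lower. All 7 markers of interdigit and distal limb mesenchyme were measured, among them Aldh1a2 at 11474 in Hammer toe and 13129 in wild type. Their summed intensity was 43657 in Hammer toe and 48356 in wild type, and 6 of 7 were lower. Cartilage markers were lower in 10 of 11, with 5 at 1.5-fold or more, and summed to 10746 in Hammer toe and 16507 in wild type. Surface ectoderm markers were higher in 7 of 10 and summed to 13312 in Hammer toe and 10526 in wild type. Of these, Epcam was 1.49-fold higher on its brightest probe set but 1.64-fold lower on a dimmer one of the _x_at type. Krt14 split the other way, with log2 ratios of -0.05 on its brightest probe set and 0.40 on another. Endothelial markers were split, 5 higher and 5 lower, and summed to 6676 in Hammer toe and 5986 in wild type. Macrophage markers were higher in 10 of 10, with sums of 4352 in Hammer toe and 3355 in wild type. Erythroid markers were lower in 6 of 6, with sums of 49710 in Hammer toe and 57914 in wild type. Skeletal muscle markers were higher in 4 of 6, at low intensity, with sums of 1534 in Hammer toe and 1018 in wild type. Nerve markers, also dim, summed to 567 in Hammer toe and 427 in wild type, and 3 of 3 counted as higher. Of these, Mbp was 1.59-fold and Tubb3 1.03-fold higher. Sox10 read 78.1 in Hammer toe, just above the floor, and 27.3 in wild type, so it gives no usable ratio. No marker was at 0, and Snorc, Myf5, Tnnt2 and Foxd3 stayed under the floor in both samples. Msx1, Msx2 and the Id genes are expressed in more than one of these tissues, and the part of tissue make-up in their values was not tested. In such bulk samples fewer cells of a type and less RNA per cell cannot be told apart.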

How the data were processed

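RNA was biotin-labelled from 250 ng of total RNA, per the labels' protocols. The authors deposited 1 intensity per probe set and array, computed by the MAS5 method of Affymetrix Expression Console according to the submitters' processing notes, which give no version. Each array's mean, trimmed by 2% at either end, was 500.003, so a shift of most transcripts together would be hidden. Detection calls were not used.

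Of 45101 probe sets, 64 controls were left out. Single-gene names came from GEO's platform annotation, and 34754 of 34945 were matched by gene ID to RefSeq (GRCm38.p6). Intensities were raised to the floor of 78.1 before log2 ratios were taken, and a probe set counted as measured when its brighter array exceeded it. Gene lists were read from the measured probe set with the highest mean. All members were named, and from each pathway list those that reached 1.5-fold, up to 4, or the 3 furthest from wild type where fewer than 3 passed. Further list members are quoted as examples chosen after their values were seen. Members, lists and alternatives were chosen with earlier results of these data known. Calculations used Python 3.11.15, pandas 2.3.3 and statsmodels 0.14.6, and were tested on simulated data. The number of arrays limits the precision.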

Additional observations from a re-analysis of the deposited data

How the results depend on the processing

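With 1 array per genotype no replicate could be left out. No paired analysis was possible because each genotype has a single array. The count of 1 of the 10 genes' probe sets at 1.5-fold or more became 2 with no floor and 2 when the floor was lowered to the 25th percentile, where the dim Msx2 probe set entered at a log2 ratio of -1.62 while 27.5% and 15.4% of all probe sets passed. It was 2 at a smaller size of change, 0.32 on the log2 scale, which adds an Id4 probe set, and 0 without probe sets of the types _x_at, _s_at and _a_at. It was also 0 without the Smad7 _x_at probe set, an alternative chosen after seeing the data. The Smad7 ratio of -1.71 was -0.64 when the floor was raised to the 75th percentile, above its Hammer toe value, and -1.43 with a pseudocount. The median over all probe sets of the 10 genes stayed between -0.06 and -0.01 in the 10 alternatives run. The antagonist median of 0.14 was 0.38 without the special probe set types. With that higher floor the endothelial, macrophage and muscle medians were 0.29, 0.056 and 0.72. The nerve median of 0.04 was 0.36 with no floor, 0.67 with the lower floor, 0.46 with a pseudocount and 0.34 with quantile normalization. A change of sign was looked for only in ratios and medians at 1.5-fold or more, which here meant the Smad7 _x_at probe set alone. That probe set stayed lower in Hammer toe in every alternative that kept it, which is no check on smaller differences. The endothelial median, -0.003 in the main setting, changed sign at the higher floor. Low signal limits Bmpr1b, read by 1 usable probe set, and the second Msx2 probe set, which was dim in both samples.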

Other observations

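Receptors of the neighbouring TGF-beta branch, which Smad7 also blocks, were measured for 3 of 4 listed genes. Tgfbr1, the type I receptor, read 5002 in Hammer toe and 6266 in wild type on its brightest probe set, a log2 ratio of -0.33 and just beyond the range of 95% of bright probe sets. Its other probe sets had log2 ratios of 0.12 and -0.14, so the gene has no common direction. Tgfbr2, the type II receptor, read 1561 in Hammer toe and 1618 in wild type. Acvr1b, an activin type I receptor, read 1069 in Hammer toe and 1031 in wild type.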
